A study of Homo sapiens with 2 samples.

Results

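The COPII coat is the protein shell that buds transport vesicles from the endoplasmic reticulum, and the values of 10 of its genes are described here, SEC24A, SEC24B, SEC24C, SEC24D, SEC23A, SEC23B, SEC13, SEC31A, SAR1A and SAR1B, out of 19775 genes that have a probe set of their own on the array. The genes were taken by name as members of the coat, and the gene set was chosen by the higher SEC24D signal of the eltrombopag sample in these same arrays, to ask whether the other coat genes shared it. Every ratio below therefore comes from the contrast that prompted the choice and is a description with no test. The platform annotation assigned 24 probe sets to these genes alone, and all 10 genes had at least 1.

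The eltrombopag group holds 1 sample labelled HL60, given the drug at 3 µg/ml for 36 h, and the untreated group holds 1 sample labelled HL60 that received no drug. HL60 is a human promyelocytic leukaemia cell line, grown here in RPMI with fetal bovine serum, and the labels give its cell type as hematopoietic stem. Eltrombopag is a small molecule that activates the thrombopoietin receptor and also binds iron. The labels name no vehicle and no culture time for the untreated cells, so the drug, a vehicle and time in culture cannot be told apart, and with 1 sample in each group no difference has a replicate check.

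COPII assembly starts when the small GTPases SAR1A and SAR1B load GTP at the endoplasmic reticulum and insert into its membrane. They recruit the inner coat, in which SEC23A or SEC23B, the activators of the SAR1 GTPase, pair with a SEC24 protein that binds the cargo to be exported. SEC13 and SEC31A then form the outer cage that bends the membrane into a vesicle. The SEC24 proteins fall into the pairs SEC24A with SEC24B and SEC24C with SEC24D by sequence, and their cargo preferences differ in part; the escort protein SCAP, which carries the sterol-sensing factor SREBP to the Golgi, is among the known clients of the coat.

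Values are MAS5 signals, a linear brightness per probe set, and each ratio is eltrombopag over untreated on the log2 scale. Signals under 56.9, the 60th percentile of the pooled arrays, were raised to that value, called the floor, before a ratio was taken. A probe set or gene at or above the floor in at least 1 sample is called measured, and a gene is represented by its brightest probe set. Of the probe sets, 39.3% in the eltrombopag and 40.7% in the untreated sample reached the floor, and 10314 genes were measured, with a median log2 ratio of -0.12 and quartiles of -0.37 and 0.11. The number of arrays limits the precision, and the only error they hold is how far apart the probe sets of a gene lie: the log2 ratios of the brightest pair differed by a median of 0.21 and a 90th percentile of 0.60 over 4374 genes.

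The markers did not match the HL60 label in full. Of 16 promyelocyte genes on the array, 13 were measured, beside 10314 of 19775 of all genes. Among them was MPO, myeloperoxidase, with a signal of 1467 in the eltrombopag and 1556 in the untreated sample. AZU1, at 80.78 in the eltrombopag and 67.25 in the untreated sample, and ITGAM, at 41.13 and 61.96, lay near the floor. ELANE, neutrophil elastase, SPI1, a myeloid transcription factor, and LYZ, lysozyme, lay below the floor in both samples. Of 16 plasma cell genes, which this cell line is not known for, 11 were also measured. JCHAIN, the joining chain of secreted antibodies, had a signal of 4866 in the eltrombopag and 7972 in the untreated sample, and MZB1, an endoplasmic reticulum protein of antibody-secreting cells, 1064 and 1295. CD27, CD79A and the immunoglobulin genes IGHG1, IGHM and IGKC lay below the floor in both samples. Which cells the samples held was not tested beyond these levels, and the name HL60 is used below as a label.

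The plasma cell genes moved with the drug label in the direction opposite to the coat. Of the 11 measured, 10 had a ratio below 0, while 36.6% of all measured genes lay above 0. At least 2-fold lower were 6, beside 2.27% of all measured genes, and the median log2 ratio was -1.27. These 6 were IRF4 at -2.37, TNFRSF17 at -2.10, SLAMF7 at -2.01, FKBP11 at -1.86, POU2AF1 at -1.56 and SDC1 at -1.27. Other probe sets gave -0.39 and, as a bound, -2.18 for SLAMF7, -2.17 and -0.69 for FKBP11 and -1.24 for SDC1. DERL3, the 1 gene above 0, had 0.63, and -0.53 in its other probe set. Their list's summed signal was 8283 in the eltrombopag and 16180 in the untreated sample, or 3417 and 8204 without JCHAIN. Of the 13 promyelocyte genes, 10 had a ratio below 0 and 3 above, beside 36.6% of all measured genes above 0. The median of the 13 was -0.21, beside -0.12 for all measured genes. At least 2-fold lower were 2, beside 2.27%, namely CEBPA, a transcription factor of granulocytes, at -1.55 and CSF3R at -1.17. The summed signal of the promyelocyte genes was 12750 in the eltrombopag and 13940 in the untreated sample, or 5063 and 6784 without SRGN. Of the B and T cell genes 4 of 11 were measured, with PAX5 at least 2.32-fold lower. Measured among the epithelial and fibroblast genes were 3 of 10, none past 2-fold. Both counts stand beside 10314 of 19775 of all genes. Plasma cells are known for heavy use of the export pathway described here. The part of these markers in the coat values was not tested, and in a bulk sample fewer cells of a type and less RNA per cell cannot be told apart.

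The coat genes were mostly higher in the eltrombopag sample, and on the deposited scale SEC24D alone passed 2-fold. Of the 10 genes, 8 had a ratio above 0, beside 36.6% of all measured genes, and 2 had one below 0, SAR1A and SAR1B. At least 2-fold higher was 1 gene, SEC24D, beside 0.650% of measured genes, and 0 were at least 2-fold lower, beside 2.27%. At least 1.5-fold higher were 4 genes, SEC24D, SEC24A, SEC31A and SEC24C, beside 3.49%, and 0 were at least 1.5-fold lower, beside 11.8%. SEC24D prompted the choice, so these counts include a gene that was high by the rule. Of the 9 other genes, 7 had a ratio above 0, beside the same 36.6%. Among them 0 were at least 2-fold higher, beside 0.650%, and 3 at least 1.5-fold higher, beside 3.49%. The median log2 ratio of the 10 genes was 0.44, and that of the 9 without SEC24D was 0.42. Of the 24 coat probe sets, 21 were measured, 16 with a ratio above 0 and 5 below. The 16 include the 3 of SEC24D. Over 18634 measured probe sets of the array the median was -0.12, and 37.1% lay above 0.

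**Figure D1:**
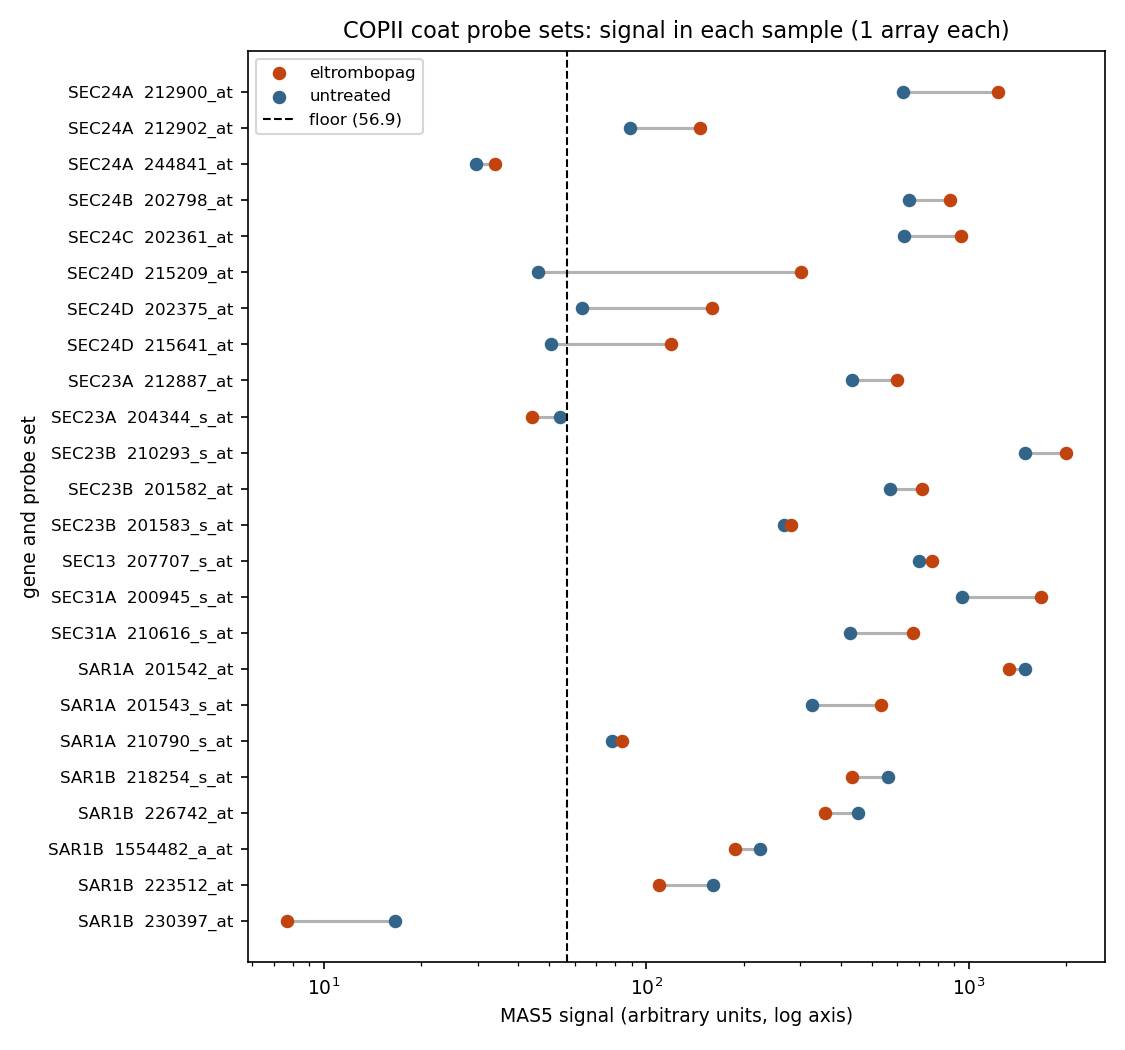
MAS5 signal (log axis) of each of the 24 COPII coat probe sets in the eltrombopag and the untreated sample, 1 array each, with the floor of 56.9 as a dashed line. All 3 SEC24D probe sets lie near or below the floor in the untreated sample and above it in the eltrombopag sample, and the 5 SAR1B probe sets are lower in the eltrombopag sample.

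SEC24D, a cargo-binding inner coat subunit, had 3 probe sets, and all of them were brighter in the eltrombopag sample. The brightest by mean log2 signal, 215209_at, had a signal of 301.67 in the eltrombopag and 46.19 in the untreated sample. There it lay below the floor, so its ratio is a lower bound, at least 5.30-fold higher. In the untreated sample it was the dimmest of the 3, so its choice to represent the gene also came from its eltrombopag signal. Probe set 202375_at, above the floor in both samples, had 159.98 in the eltrombopag and 62.98 in the untreated sample, 2.54-fold higher. The dimmest by mean log2 signal, 215641_at, had 119.46 and 50.76, at least 2.10-fold higher. All 3 untreated signals lay close to the floor, where MAS5 values carry large relative error, and the brightest probe set counts as measured only through its eltrombopag signal. With its bound of 2.41, SEC24D ranked 5 from the top among 10314 measured genes; with the floor raised to the 75th percentile its ratio was 0.82, below 2-fold.

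SEC24A came next to it. Its probe set 212900_at had a signal of 1227.35 in the eltrombopag and 623.52 in the untreated sample, a log2 ratio of 0.98 or 1.97-fold, just short of 2-fold. This ranked 71 among all measured genes, and 99.3% of them had a lower ratio. A dimmer probe set, 212902_at, had 146.69 in the eltrombopag and 88.82 in the untreated sample, 1.65-fold higher, and 244841_at, at 33.95 and 29.61, lay below the floor in both.

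SEC24C, the closest relative of SEC24D, had 944.70 in the eltrombopag and 629.46 in the untreated sample in its 1 probe set, 202361_at, a log2 ratio of 0.59, just past 1.5-fold. SEC24B, the relative of SEC24A, had 873.52 and 650.86 in 202798_at, a log2 ratio of 0.42 or 1.34-fold. Over the 4 SEC24 genes, all 7 measured probe sets were thus brighter in the eltrombopag sample, with log2 ratios of 0.42 to 2.41. Of these, 3 belong to SEC24D, which prompted the choice, and only 1 of the 3 lay above the floor in both samples. The others of SEC24D were measured through the eltrombopag sample alone, so their ratios could not lie below 0. The measured probe sets of SEC24A, SEC24B and SEC24C had log2 ratios of 0.42 to 0.98. The probe sets used for SEC24A, SEC24B and SEC24C lay above the floor in both samples.

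**Figure D2:**
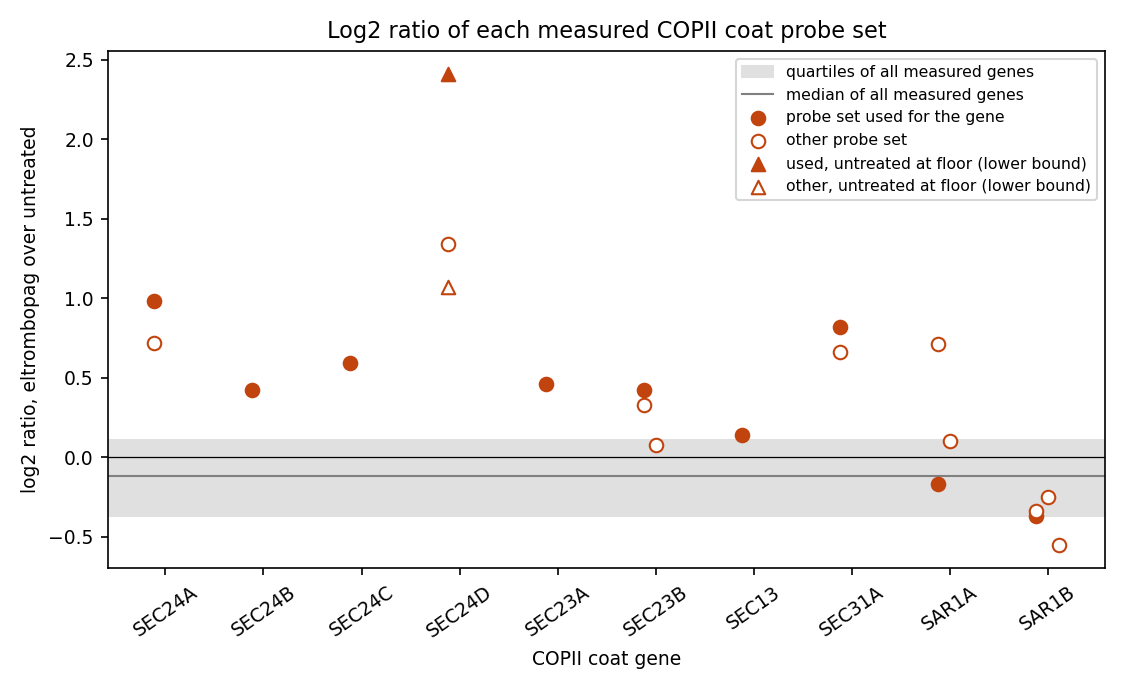
Log2 ratio of eltrombopag over untreated for each of the 21 measured COPII coat probe sets, by gene; filled symbols mark the probe set used for the gene, triangles mark lower bounds, and the grey band spans the quartiles of all measured genes, -0.37 to 0.11. The SEC24, SEC23, SEC13 and SEC31A probe sets lie above 0, those of SAR1B below it, and those of SAR1A on either side.

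The SEC23 partners of the inner coat had ratios close to that of SEC24B. SEC23A, mutated in cranio-lenticulo-sutural dysplasia, had 598.61 in the eltrombopag and 433.74 in the untreated sample in 212887_at, a log2 ratio of 0.46 or 1.38-fold, while its other probe set, 204344_s_at, lay below the floor at 44.11 and 53.79. SEC23B, mutated in a congenital dyserythropoietic anaemia, had 1997.94 in the eltrombopag and 1491.74 in the untreated sample in 210293_s_at, a log2 ratio of 0.42. Its other probe sets gave 0.33, from 713.65 and 568.06, and 0.08, from 280.94 and 266.65, so all 3 had the same sign, and the lowest and highest lay farther apart than the median gap of 0.21 between probe sets of a gene.

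The subunits of the outer cage differed from each other. SEC31A had 1672.77 in the eltrombopag and 949.82 in the untreated sample in 200945_s_at, a log2 ratio of 0.82 or 1.76-fold, and 672.64 and 427.01 in 210616_s_at, a ratio of 0.66. It ranked 132 among all measured genes. SEC13, its partner in the cage and also a subunit of the nuclear pore, had 771.07 in the eltrombopag and 698.01 in the untreated sample in its 1 probe set, 207707_s_at, a log2 ratio of 0.14 or 1.10-fold. This ratio is smaller than the median gap of 0.21 between probe sets of a gene. The 3 probe sets named for SEC31A and SEC13 carry the suffix _s_at, which marks probes that can match several transcripts.

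The GTPases that start the coat were the genes with a ratio below 0 in the brightest probe set, and SAR1B was below 0 in its other measured probe sets too. SAR1B, mutated in chylomicron retention disease, had 433.72 in the eltrombopag and 561.18 in the untreated sample in 218254_s_at, a log2 ratio of -0.37. Its 3 other measured probe sets were lower too, with ratios of -0.34 in 226742_at, -0.25 in 1554482_a_at and -0.55 in 223512_at, and 230397_at lay below the floor at 7.65 and 16.63. The ratios of 218254_s_at and 223512_at lay at or below the lower quartile of all measured genes, -0.37, those of the other 2 above it, and 24.9% of measured genes had a lower ratio than SAR1B.

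SAR1A has no settled direction. Its brightest probe set, 201542_at, had 1330.60 in the eltrombopag and 1497.68 in the untreated sample, a log2 ratio of -0.17, whereas 201543_s_at had 533.80 and 326.36, a ratio of 0.71, and 210790_s_at had 83.83 and 78.05, a ratio of 0.10. As the mean over its probe sets the ratio was 0.21. The gap of the brighter pair of probe sets exceeds the 90th percentile of such gaps, 0.60.

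**Figure D3:**
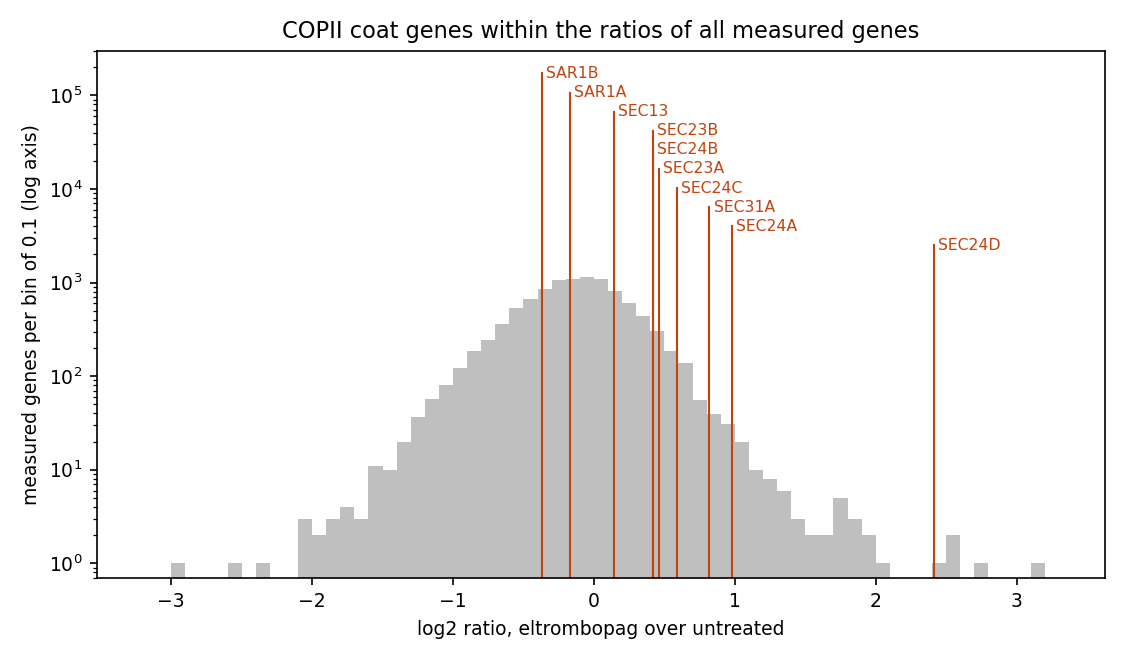
Histogram of the log2 ratios of all 10314 measured genes (genes per bin of 0.1, log axis), with a line at each COPII coat gene; the SEC24D value of 2.41 is a lower bound. SAR1B and SAR1A lie inside the bulk of the genes, and SEC31A, SEC24A and SEC24D lie in its upper tail.

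The ratios also depended on how the arrays were scaled. The median over all measured genes was -0.12 as deposited, 0.02 after median centring, -0.01 after quantile normalization and -0.02 after lowess, and the share of higher genes among those changed by 2-fold was 22.3%, 47.7%, 44.8% and 43.2%. Median centring, quantile normalization and lowess moved the coat ratios up by 0.06 to 0.15. SEC24A then passed 2-fold in each, with log2 ratios of 1.12, 1.06 and 1.06, so that 2 coat genes were at least 2-fold higher. SEC31A reached 0.96, 0.90 and 0.89, and SAR1B remained below 0 at -0.23, -0.26 and -0.26. The number of coat genes with a ratio above 0 was 8 under each of these scalings.

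**Figure D4:**
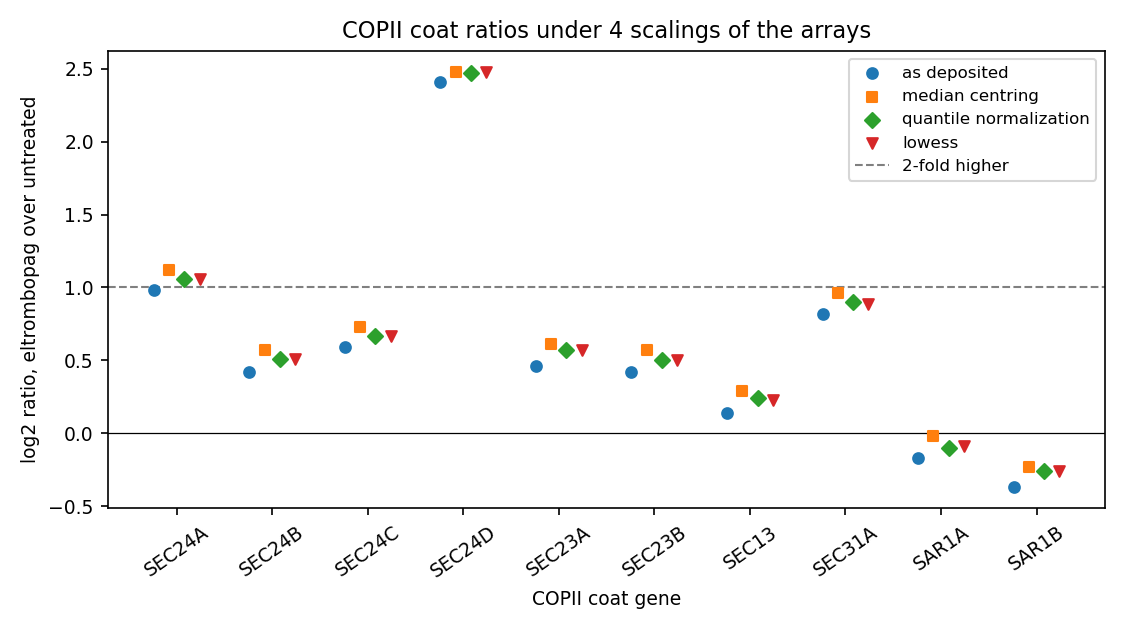
Log2 ratio of eltrombopag over untreated for the 10 COPII coat genes with the arrays as deposited and after median centring, quantile normalization and lowess; the dashed line marks 2-fold. SEC24A crosses the line from 0.98 to between 1.06 and 1.12, SEC24D stays above it, and the order of the other genes is nearly the same.

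Promoter sequences were examined because response elements of endoplasmic reticulum stress and of the CREB3 family are known in genes of this pathway. RefSeq windows of 300 bases, from 250 before to 50 after a transcription start (GRCh38.p14), matched 9 of the 10 coat genes; SEC24D was not matched. Where a gene had several starts, the most upstream was used, 1 of 4 for SEC31A and 1 of 2 each for SEC23B and SEC13. The other starts were not searched. The letters TGACGTGG, the core of the unfolded protein response element, were found on either strand in 2 of 9 coat windows, SEC24A and SEC23A, beside 0.806% of 27305 windows and 0.846% of 15842 windows of protein-coding genes. The shorter CCACG, which is contained in that core on the opposite strand and forms an end of the endoplasmic reticulum stress element, was found in 8 of 9, beside 37.8% of all and 43.9% of coding windows. CCAAT was found in 2 of 9, SEC31A and SAR1B, beside 35.7%. The full endoplasmic reticulum stress element, ERSE, and the cyclic AMP response element TGACGTCA were in 0 of 9, beside 0.0769% and 1.97%. The coat windows held 54.3% to 75.7% G and C, all but SEC24C above the median of 58.3%. They held 19 to 41 CG pairs each, beside a median of 13. TGACGTGG and CCACG both contain this pair, and the shares beside them were not matched for it. A match of letters shows no binding.

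Shown are the windows of the coat genes that hold the TGACGTGG letters, SEC24A and SEC23A, of the outer cage gene with the highest ratio, SEC31A, and of SAR1B, which was lower, each 5′ to 3′ on the strand of the gene, from 250 bases before to 10 after the start. Capitals mark TGACGTGG, CCACG and CCAAT on either strand. SEC24A lies at chr5:134648535-134648794 on the plus strand, SEC23A at chr14:39103226-39103485, SEC31A at chr4:82900560-82900819 and SAR1B at chr5:134632819-134633078, all on the minus strand.
SEC24A: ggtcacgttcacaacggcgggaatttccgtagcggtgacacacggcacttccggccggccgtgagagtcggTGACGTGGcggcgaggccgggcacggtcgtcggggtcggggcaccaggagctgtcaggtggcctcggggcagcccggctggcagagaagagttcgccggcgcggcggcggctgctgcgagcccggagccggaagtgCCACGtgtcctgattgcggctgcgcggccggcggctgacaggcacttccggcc
SEC23A: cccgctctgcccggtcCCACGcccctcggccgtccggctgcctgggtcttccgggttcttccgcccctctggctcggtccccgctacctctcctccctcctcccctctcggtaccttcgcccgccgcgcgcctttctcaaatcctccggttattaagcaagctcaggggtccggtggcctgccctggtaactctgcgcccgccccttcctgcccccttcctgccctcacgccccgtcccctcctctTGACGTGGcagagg
SEC31A: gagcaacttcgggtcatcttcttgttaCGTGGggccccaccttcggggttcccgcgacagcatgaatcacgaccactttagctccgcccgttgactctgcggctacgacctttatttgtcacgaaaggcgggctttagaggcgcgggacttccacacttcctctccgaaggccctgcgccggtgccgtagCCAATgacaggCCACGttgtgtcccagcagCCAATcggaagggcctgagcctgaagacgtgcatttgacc
SAR1B: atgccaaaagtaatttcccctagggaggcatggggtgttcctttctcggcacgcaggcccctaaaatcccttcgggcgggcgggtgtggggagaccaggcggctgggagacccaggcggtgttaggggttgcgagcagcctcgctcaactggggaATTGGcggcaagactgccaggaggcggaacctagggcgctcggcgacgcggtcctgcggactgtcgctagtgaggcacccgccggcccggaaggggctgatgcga

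In SEC24A the TGACGTGG letters run from base -179 to -172 before the start, and in SEC23A from -4 to 4, across it. SEC31A has CCAAT at -60 to -56 and CCACG at -49 to -45, closer together than in ERSE. SAR1B has no CCACG before its start and 1 CCAAT, on the opposite strand at -95 to -91. SEC24A and SAR1B are neighbours on chromosome 5, transcribed away from each other, with 15957 bases between their starts and 1 annotated gene, the pseudogene RNU6-1311P, between them, and their ratios had opposite signs, 0.98 and -0.37.

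Genes that assemble the coat at exit sites had ratios on either side of 0. Of 12 on the list, 11 were measured, 5 with a ratio above 0 and 6 below, beside 36.6% of all measured genes above 0. Past 2-fold were 0, beside 0.650% higher and 2.27% lower. The median was -0.02, beside -0.12 for all measured genes. MIA2, which helps to load large cargo at exit sites, had a log2 ratio of 0.47, while CUL3 and its adaptor KLHL12, which ubiquitinate SEC31A, had -0.55 and -0.46, and PDCD6, which binds SEC31A with calcium, had -0.52. Named for their roles after their values were seen, PREB, the exchange factor that loads SAR1 with GTP, had 0.29 and SEC16A, the exit site scaffold, 0.21.

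Cargo receptors of the endoplasmic reticulum were mostly near or below the all-gene median. Of 19 measured, 6 had a ratio above 0 and 13 below, beside 36.6% of all measured genes above 0. Past 2-fold were 0, beside 0.650% higher and 2.27% lower. The median was -0.14, close to the all-gene median of -0.12. ERGIC1 had a log2 ratio of -0.65, LMAN2, a lectin of the pathway, -0.39, CNIH4 -0.39 and ERGIC3 -0.35. Dimmer probe sets of several receptors disagreed with the brightest; LMAN1, the receptor of coagulation factors, gave 0.09 in the brightest and -1.30 and -1.05 in others, and is named after its values were seen.

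COPI, the coat that returns vesicles from the Golgi to the endoplasmic reticulum, had a median close to that of COPII. Of 15 measured COPI and retrieval genes, 12 had a ratio above 0 and 3 below, beside 36.6% of all measured genes above 0. Past 2-fold were 0, beside 0.650% higher and 2.27% lower. The median was 0.38, beside -0.12 for all measured genes. COPG1, a coat subunit, had a signal of 1289.04 in the eltrombopag and 777.67 in the untreated sample, a log2 ratio of 0.73. GBF1, which activates the ARF GTPases of this coat, had 0.64, ARFGAP1, which switches them off, 0.59, and ARF5, a GTPase, -0.87. The median was 0.23 under 4 of 8 alternatives, namely the mean over probe sets and the other floors.

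Clathrin, the coat of the cell surface and Golgi exit, served as a comparison. Of 21 measured clathrin and adaptor genes, 5 had a ratio above 0 and 16 below, beside 36.6% of all measured genes above 0. Past 2-fold were 0, beside 0.650% higher and 2.27% lower. The median was -0.16, close to the all-gene median of -0.12. AP2M1 had a log2 ratio of -0.72, AP3B1 -0.56, CLTB, a clathrin light chain, -0.55 and AP1G2 0.48.

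**Figure D5:**
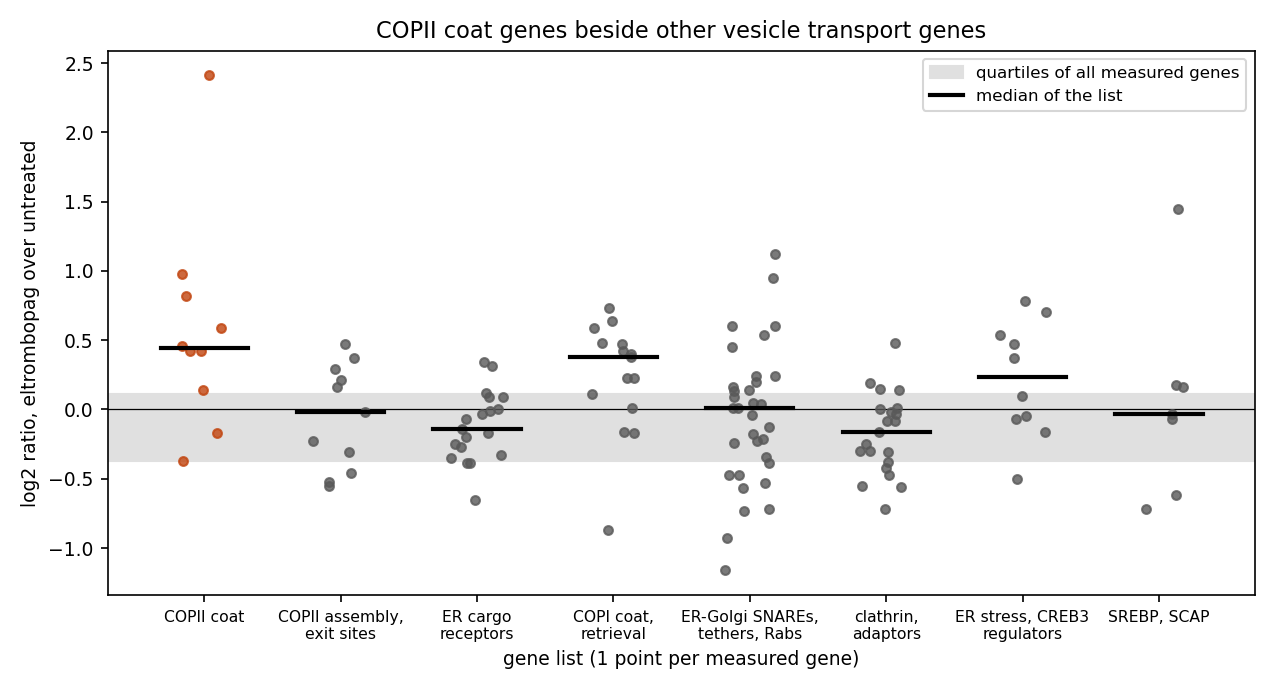
Log2 ratio of eltrombopag over untreated for every measured gene of 8 lists, 1 point per gene, with the median of each list as a bar and the quartiles of all measured genes as a grey band. The COPII and COPI medians, 0.44 and 0.38, and that of the endoplasmic reticulum stress regulators, 0.24, lie above the band, and those of the other 5 lists, from -0.16 to 0.01, lie inside it.

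The SNAREs, tethers and Rab GTPases that act in vesicle fusion between the endoplasmic reticulum and the Golgi had ratios on either side of 0. Of 33 measured, 17 had a ratio above 0 and 16 below, beside 36.6% of all measured genes above 0. The median was 0.01, beside -0.12 for all measured genes. At least 2-fold higher was 1 gene, beside 0.650%, and at least 2-fold lower was 1, beside 2.27%. GOLGA2, the Golgi tether GM130, was 2.17-fold higher, with 962.92 in the eltrombopag and 444.29 in the untreated sample, and its other probe sets gave log2 ratios of 0.96, 1.17 and 0.78. BNIP1, a SNARE of the endoplasmic reticulum, had 0.95. TRAPPC1, a subunit of the TRAPP tether, was 2.23-fold lower, with 76.32 and 170.13, not far above the floor. TRAPPC2L had -0.93, SEC22C -0.73 and the SNARE YKT6 -0.72.

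Among regulators of the pathway, HSPA5, the chaperone BiP, had 4879.63 in the eltrombopag and 2841.88 in the untreated sample, a log2 ratio of 0.78, and 1.06 in its other probe set. CREB3L2, a transcription factor known from mouse chondrocytes to activate Sec23a, had 0.70 in the brightest of its probe sets, against -0.35 and 0.04 in others. DDIT3, the stress factor CHOP, had 0.54, ATF6B -0.50 and XBP1, a transcription factor of the unfolded protein response, -0.07. Of the 10 measured regulators, 6 had a ratio above 0 and 4 below, beside 36.6% of all measured genes above 0. Past 2-fold were 0, beside 0.650% higher and 2.27% lower. The median of 0.24, beside -0.12 for all measured genes, was 0.02 when _x_at and _s_at probe sets were left out.

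The SREBP system, whose transport the coat carries out, had no common direction. Of 7 measured genes, 3 had a ratio above 0 and 4 below, beside 36.6% of all measured genes above 0. At least 2-fold higher was 1, beside 0.650%, and at least 2-fold lower were 0, beside 2.27%. SREBF2 was 2.74-fold higher, with 576.87 in the eltrombopag and 210.80 in the untreated sample, and gave log2 ratios of 0.55 and 0.79 in other probe sets. SCAP, the client that binds SEC24, had -0.07. INSIG1, which holds SCAP back in the endoplasmic reticulum, had -0.03 in the brightest, 1.18 and -0.36 in other probe sets, and INSIG2 had -0.62. MBTPS2, a protease that releases SREBP in the Golgi, had -0.72, MBTPS1, the other, 0.18, and SREBF1 0.16.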

How the data were processed

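Expression was measured on 1 array per sample. The authors deposited a linear signal intensity for each probe set. The submitters' processing notes name MAS5; no version, scaling target or detection call is given in the sources read. Because MAS5 subtracts background array by array, low signals have large relative error. Gene names came from the platform annotation: 41091 of 54613 probe sets named 1 gene and were used, and 0 symbols changed when updated through RefSeq. Signals below the pooled 60th percentile were raised to it, a gene took the probe set with the highest mean log2 signal, and genes were counted at 2-fold. The members and gene lists were chosen with earlier results of these data known. Named genes were all coat genes, the members of each comparison list past 2-fold and up to 4 more with the largest log2 ratio in size, and a fixed panel; exceptions are marked. Of the marker lists, members past 2-fold were named, as were typical markers, members near the floor and the plasma cell gene above 0. All but those past 2-fold were named after their values were seen. The treatment was not tested, since each group holds 1 sample. Lowess used a span of 0.3 (statsmodels 0.14.6, numpy 2.4.6, pandas 2.3.3). Planned identities between coat proteins were not analysed here.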

Additional observations from a re-analysis of the deposited data

How the results depend on the processing

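The coat median of 0.44 lay between 0.42 and 0.59 under every alternative run, and the number of coat genes with a ratio above 0 was 8, except for 9 when probe sets were averaged and 6 when those ending in _x_at or _s_at were left out, which removed SEC13 and SEC31A. The alternatives for SEC24D alone were added after seeing the data. SEC24D had a log2 ratio of 2.71 with a 50th-percentile floor or none, 1.61 with probe sets averaged, 1.34 by 202375_at and 0.82 with a 75th-percentile floor, since the bound follows the floor. Coat genes at least 2-fold higher numbered 2 after median centring, quantile normalization and lowess, 0 with a 75th-percentile floor and 4 at 1.5-fold. Over all genes, 115 were at least 2-fold higher and 126 lower after median centring, 108 and 133 after quantile normalization, 104 and 137 after lowess, 37 and 98 with a 75th-percentile floor, and 1194 and 1324 with none; at 1.5-fold the counts were 360 and 1215, and at 3-fold 18 and 19. SNARE, tether and Rab genes at least 2-fold higher numbered 2 under each of the other scalings, and those at least 2-fold lower 0 with a 75th-percentile floor and 0 without _x_at and _s_at probe sets. SREBP genes at least 2-fold higher numbered 0 with probe sets averaged, and cargo receptors at least 2-fold lower 1 without _x_at and _s_at probe sets. The causes were not tested. Of the values of single coat genes, 73 moved by less than the spread between probe sets (SD 0.26) and 6 by more, all of SEC24D or SAR1A; SAR1A had 0.21 with probe sets averaged. No paired analysis was possible because each group holds 1 sample.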

Other observations

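SEC24B-AS1, the antisense transcript beside SEC24B, had 1 probe set, with a signal of 37.37 in the eltrombopag sample, below the floor of 56.9, and 56.97 in the untreated sample, just above it.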
